A study of Homo sapiens with 3 samples.

Results

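The genes described here are 29 that carry out or govern cholesterol and fatty acid synthesis. They were listed by place in the pathway, not by a rule on measured values, but with earlier results of these data known. Transcripts of 28 of them were matched in the 3 tables, and all 28 were among the 20466 genes tested of 52992 genes with a matched transcript. None of the transcripts of ACACA, which encodes the acetyl-CoA carboxylase that makes malonyl-CoA, was matched, so no value is given for it. By role, 7 of the 28 act in the mevalonate steps, 11 in the squalene and sterol steps, 6 in fatty acid synthesis and desaturation, and 4 are regulators or sterol carriers.

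The series addressed the circuit of transcription factors that includes KLF5 in esophageal squamous cell carcinoma. RNA was sequenced from TE5, an established line of that cancer grown in serum-supplemented medium, in 3 libraries harvested 48 h after transfection. One library received a scrambled control and the other 2 received shKLF5, short hairpin RNA against KLF5, and they are called library 1 and library 2 here as numbered in the labels. The labels do not say whether the shKLF5 libraries came from different hairpins or from separate cultures. The p-values therefore rest only on how far those 2 libraries spread, in each gene and pooled over genes, and that spread may be technical. Scramble, a single library, was assumed to vary as they do.

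Cells make cholesterol from acetyl-CoA through mevalonate, isoprenoid diphosphates, squalene and lanosterol, and they make fatty acids from the same acetyl-CoA. Both sets of genes are known targets of the SREBP transcription factors, encoded by SREBF1 and SREBF2, which are held in the endoplasmic reticulum by INSIG proteins when sterols are plentiful and are released to the nucleus when sterols are scarce. INSIG1 is itself an SREBP target, so its transcript is commonly used as a readout of the pathway.

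The libraries held 33448976 (scramble), 33544752 (library 1) and 32720563 (library 2) estimated counts. Genes with at least 10 counts numbered 16920 in scramble, 19304 in library 1 and 19422 in library 2. Mitochondrial rRNA took 6.87%, 4.27% and 3.94% of matched counts in that order. What part these library differences had in the results was not tested. KLF5, the targeted gene, had 8402 counts with scramble against 1333 and 1531 in libraries 1 and 2, a log2 fold change of -2.96 (SE 0.34) with an edgeR adjusted p of 0.137. Its adjusted p was 0.0156 in the legacy edgeR fit and 1.54e-06 with DESeq2, and it ranged from 1.54e-06 to 0.611 over all alternatives. All 10 squamous markers were detected, and their summed TPM (a level corrected for transcript length and depth) was 3572 in scramble, 1050 in library 1 and 600 in library 2. Summed TPM of the adipocyte markers lay between 0.58 and 1.18, of the hepatocyte markers between 0.05 and 0.99, and of the glandular markers between 0.06 and 0.18. Fibroblast markers summed to 16.7, 26.3 and 15.4 TPM in scramble, library 1 and library 2, mostly from COL1A1, leukocyte markers to 4.18, 10.8 and 14.4 TPM, mostly from CD68, and endothelial markers to 0.32, 1.09 and 1.36 TPM. The squamous sum thus fell from scramble to each shKLF5 library, whereas the leukocyte and endothelial sums rose in each. The fibroblast sum rose in library 1 and fell slightly in library 2. In TPM, 11.3% of all genes tested lay below scramble in both shKLF5 libraries. The median log2 fold change of TPM + 1 over all genes tested was 0.27, so a rise in TPM was common. What part these marker levels had in the results was not tested.

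Across the 28 genes, scaled by TMM (edgeR's trimmed mean factors, which assume that most genes do not differ), 26 lay below scramble in both shKLF5 libraries, PMVK lay above it in both, and TM7SF2 lay below it in library 1 and above it in library 2. By the same measure 36.4% of all genes tested lay below scramble in both and 37.9% lay above it in both. Taken singly, library 1 lay below scramble for 27 of the 28 (50.1% of all genes) and library 2 for 26 (48.3%). The median fitted log2 fold change was -0.77 for the 28 genes and 0.04 for all genes tested. The median was -1.17 in library 2 and -0.41 in library 1. In these bulk libraries, fewer cells of a type and less RNA per cell cannot be told apart.

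No gene passed the test at an adjusted p of 0.05. The edgeR quasi-likelihood test called 0% of all genes, and adjusted p for the 28 genes ranged from 0.417 (FADS1) to 0.990 (TM7SF2). At an unadjusted p under 0.05, 6 of the 28 were lower and none was higher, namely FADS1, INSIG1, FADS2, ELOVL6, LSS and SREBF1, while 3.60% of all genes were lower and 9.43% differed in either direction by that rule. The legacy edgeR fit called 21 genes (0.103%) and DESeq2 called 116 (0.687% of those it tested), and neither called any of the 28.

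**Figure D1:**
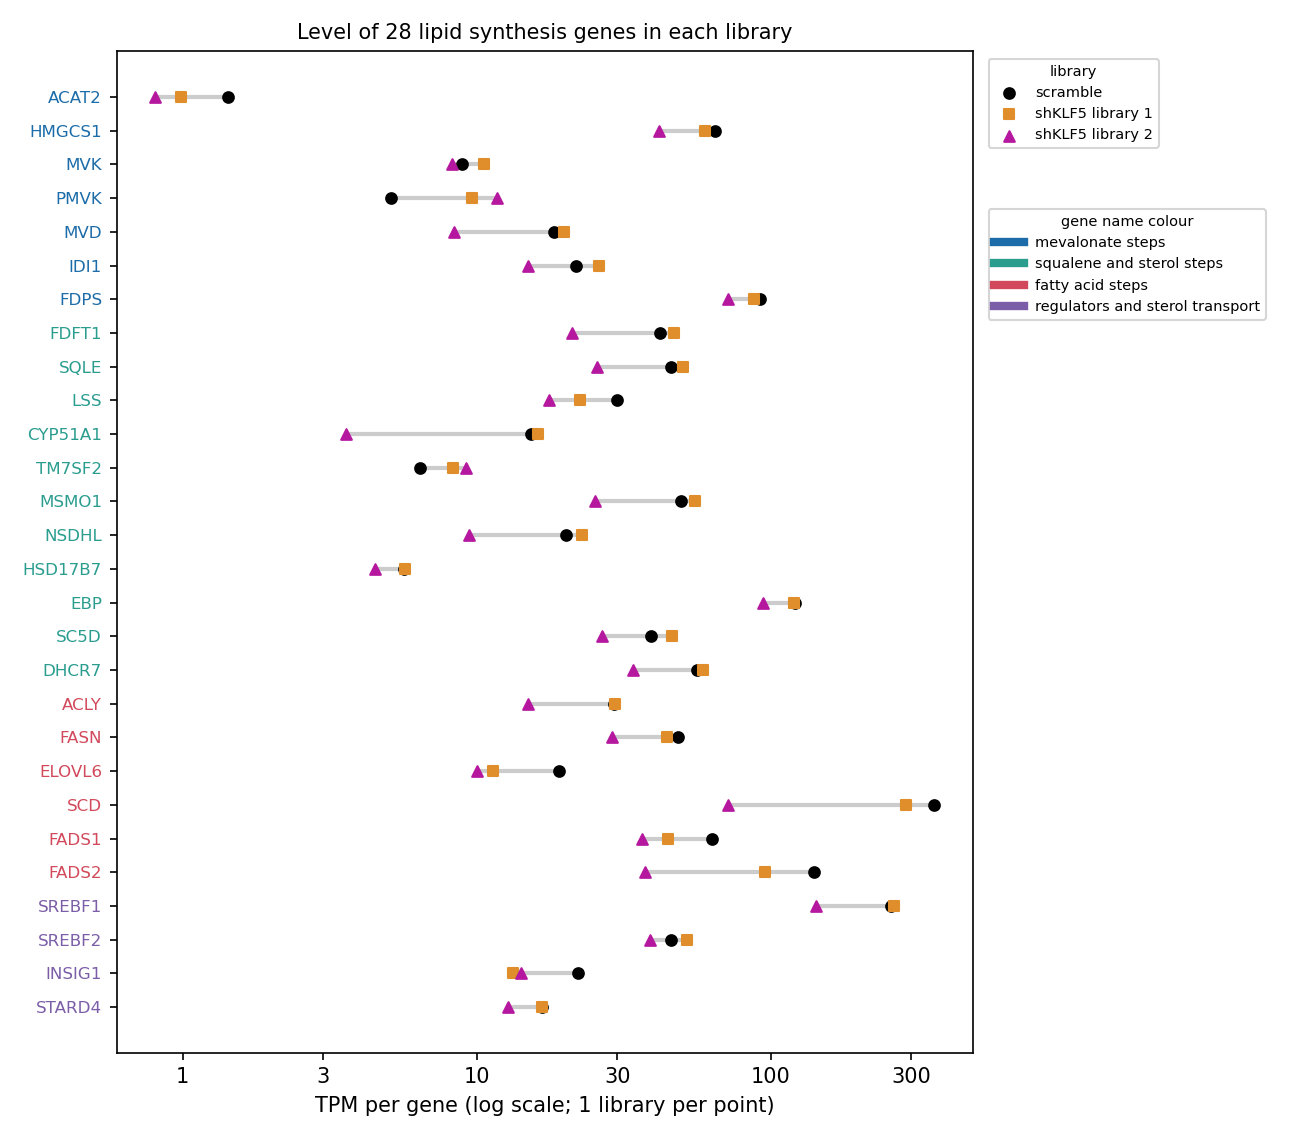
Level of each gene in TPM on a log axis, 1 point per library (scramble, shKLF5 library 1, shKLF5 library 2), with gene names coloured by step. SCD spans 357 to 71.5 TPM and CYP51A1 15.3 to 3.58 TPM, whereas PMVK is lowest in scramble.

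The scaling decided where library 1 stood against scramble, and it hardly touched the order of the shKLF5 libraries. Mitochondrial mRNA took 32.4%, 27.9% and 32.0% of matched counts in scramble, library 1 and library 2, and KRT5 alone had 142684, 34119 and 13095 counts. The TMM factors were 0.82, 1.10 and 1.10. With library size alone, all genes tested had a median of 0.46, with 12.6% below scramble in both libraries and 65.0% above it. Under that scaling 13 of the 28 genes were below in both, 2 were above in both and 13 were split between the libraries. Library 1 alone was below scramble for 13 (18.9% of all genes) and library 2 for 26 (28.6%), with a median of 0.01 in library 1 and -0.75 in library 2. Measured from the median of all genes, the 28 stood at -0.80 under either scaling. That sameness is no check, because a change of scaling shifts all genes by nearly the same amount.

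**Figure D2:**
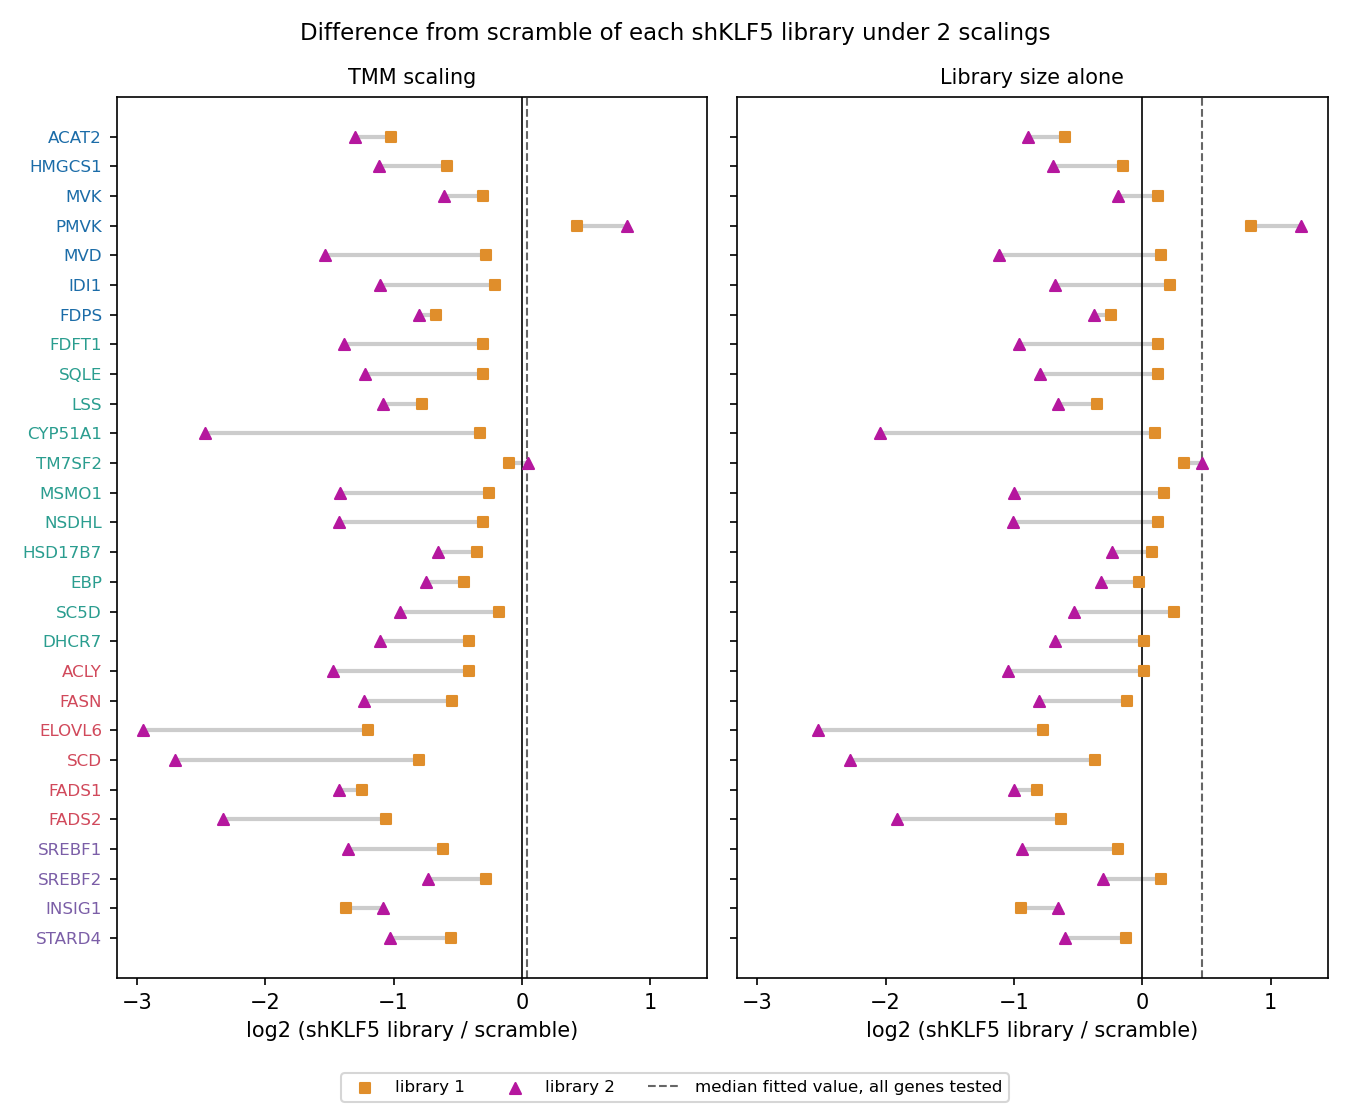
Log2 ratio of each shKLF5 library to scramble for 28 genes, with TMM scaling on the left and library size alone on the right; the dashed line is the median fitted value of all genes tested. Library 2 lies below library 1 for 25 of the 28 genes, and the median of all genes moves from 0.04 to 0.46 between the panels.

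The genes were also abundant, and abundant genes as a class had lower values. Their mean abundance had a median percentile of 87.6 among the genes tested (range 40.8 to 99.9), and 19 lay above the 75th percentile. Among all genes above that percentile the median log2 fold change was -0.21 and 56.3% were lower in both. With the abundance trend subtracted, 26 of the 28 were lower in both (36.6% of all genes) and their median was -0.63.

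The 4 regulators and sterol carriers had a median log2 fold change of -0.86 and all were lower in both libraries, while with library size alone 3 of 4 were, at a median of -0.43. Of these, INSIG1, which retains the SREBP precursors in the endoplasmic reticulum, was lower in both shKLF5 libraries with TMM and with library size alone. Its counts were 1539 (scramble), 798 (library 1) and 950 (library 2), equal to 22.1, 13.3 and 14.1 TPM. Both shKLF5 libraries lay below scramble and close to each other, at 24.8 ± 3.53 CPM (SD, n = 2) against 57.8 in scramble. Fitted over both libraries, log2 fold change was -1.22 (SE 0.37, 95% interval -2.06 to -0.38; edgeR adjusted p = 0.446), and with library size alone the separate values were still -0.94 and -0.66.

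SREBF1, whose proteins drive mainly fatty acid genes, had 10102, 8842 and 5141 counts in scramble, library 1 and library 2 (log2 fold change -0.94, SE 0.40). In TPM summed over all its transcripts it stood at 256 in scramble, 262 in library 1 and 142 in library 2. Library 1 thus lay below scramble in scaled counts and not in this sum. Its protein-coding transcripts alone had 73.3, 65.8 and 34.0 TPM in scramble, library 1 and library 2, with library 1 below scramble. SREBF2, whose protein drives mainly sterol genes, had 6546, 7217 and 5155 counts (log2 fold change -0.49, SE 0.37). Its library 1 value turned from -0.28 to 0.14 with library size alone. STARD4, a cytosolic sterol carrier, had 1456, 1333 and 933 counts (log2 fold change -0.77, SE 0.38). RAI1, which overlaps SREBF1 in the annotation, had 2798, 3342 and 3865 counts. The antisense genes SREBF2-AS1 (120, 140 and 141 counts) and STARD4-AS1 (40, 60 and 46 counts) were small beside their partners; the use of strand in counting is not given in the sources used here.

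Promoter windows of 300 bases, 250 before and 50 after a RefSeq start on GRCh38.p14, were found for 25 of the 29 genes, 34 windows in all. The upstream 250 bases are printed 5′ to 3′ on the gene's own strand for 6 genes chosen after their values were seen: a pathway readout, a sterol-side regulator, a sterol gene low in library 2, the most abundant gene, a mevalonate gene and the gene that was higher. Capitals mark matches on either strand to TCACNCCAC (the core of a sterol regulatory element), TCACNTGA (an E-box form bound by SREBP), CCAAT (the NF-Y box), GGGCGG (the GC box of SP and KLF proteins) and CCACNCCC (the CACCC box of KLF proteins), and matches may overlap. INSIG1 lies at chr7:155297628-155297877 (+), SREBF2 at chr22:41832855-41833104 (+), MSMO1 at chr4:165327419-165327668 (+), SCD at chr10:100346983-100347232 (+), MVK at chr12:109573544-109573793 (+) and PMVK at chr1:154936720-154936969 (-).
INSIG1: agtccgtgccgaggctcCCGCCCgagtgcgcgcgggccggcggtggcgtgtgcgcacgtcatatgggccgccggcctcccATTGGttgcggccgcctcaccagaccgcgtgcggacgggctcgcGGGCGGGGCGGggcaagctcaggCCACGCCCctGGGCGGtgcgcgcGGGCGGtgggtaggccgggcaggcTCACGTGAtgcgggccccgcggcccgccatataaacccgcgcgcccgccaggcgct
SREBF2: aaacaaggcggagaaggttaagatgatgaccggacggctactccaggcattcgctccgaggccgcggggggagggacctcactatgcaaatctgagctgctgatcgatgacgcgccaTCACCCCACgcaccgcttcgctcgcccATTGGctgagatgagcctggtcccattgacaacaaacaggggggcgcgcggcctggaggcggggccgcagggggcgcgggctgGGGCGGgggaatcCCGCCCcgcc
MSMO1: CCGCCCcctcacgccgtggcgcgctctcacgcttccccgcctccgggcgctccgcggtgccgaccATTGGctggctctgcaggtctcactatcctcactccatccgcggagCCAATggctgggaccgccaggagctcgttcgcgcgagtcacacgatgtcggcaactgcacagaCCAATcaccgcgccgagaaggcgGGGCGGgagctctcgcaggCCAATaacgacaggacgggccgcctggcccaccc
SCD: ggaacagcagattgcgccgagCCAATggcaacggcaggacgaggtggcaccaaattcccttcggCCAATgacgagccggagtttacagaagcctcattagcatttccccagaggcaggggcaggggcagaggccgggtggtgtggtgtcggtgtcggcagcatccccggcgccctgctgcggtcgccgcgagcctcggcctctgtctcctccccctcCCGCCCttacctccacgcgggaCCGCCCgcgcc
MVK: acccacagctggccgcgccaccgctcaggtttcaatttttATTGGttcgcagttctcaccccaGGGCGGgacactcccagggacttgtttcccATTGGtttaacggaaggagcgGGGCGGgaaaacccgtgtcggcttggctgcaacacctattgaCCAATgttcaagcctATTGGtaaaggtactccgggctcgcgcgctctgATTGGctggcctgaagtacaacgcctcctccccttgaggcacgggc
PMVK: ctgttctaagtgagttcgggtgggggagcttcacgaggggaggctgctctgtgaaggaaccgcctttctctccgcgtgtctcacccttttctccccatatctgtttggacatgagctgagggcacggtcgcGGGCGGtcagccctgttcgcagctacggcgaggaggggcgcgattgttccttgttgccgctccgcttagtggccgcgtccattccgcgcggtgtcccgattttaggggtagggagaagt

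In these windows the sterol regulatory element core was found 133 bases before the SREBF2 start and in none of the other 24 genes, while 1.51% of tested coding genes (1.13% of all 35116 windows) held it. TCACNTGA stood 56 bases before the INSIG1 start, as the palindrome TCACGTGA, and in the EBP window in a form that is not a palindrome, against 5.18% of tested coding genes (3.79% of all windows). CCAAT was present in 20 of the 25 genes (80%) against 42.8% of tested coding genes (34.6% of all windows), with 4 matches upstream of MSMO1 and 5 upstream of MVK. GGGCGG was present in 24 (96%) against 74.1% (45.0% of all windows), and CCACNCCC in 11 (44%) against 26.6% (17.2%). Within the latter, the stricter CCACACCC was present in 4 (16%) against 4.51% (3.28%). These counts of genes cover all 300 bases of a window, whereas capitals mark matches within the upstream 250 only. MSMO1 for CCACNCCC and FADS2 for CCAAT were counted on matches that are not within their upstream 250 bases. PMVK, the gene that was higher in both libraries, had a GC box and no CCAAT in its window, and CYP51A1, ELOVL6, FADS1 and SREBF1 had no CCAAT in theirs either. Median GC content was 68.5% in these windows, 64% in those of tested coding genes and 58.7% in all windows. A match of letters is not evidence of binding, and binding was not measured in these files.

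The mevalonate steps had a median log2 fold change of -0.73, with 6 of 7 genes lower in both libraries and medians of -0.31 in library 1 and -1.10 in library 2. With library size alone 3 of 7 were lower in both and 3 were split, at a median of -0.31, and the median in library 1 was 0.12. ACAT2, which joins acetyl-CoA units, had 127, 83 and 66 counts in scramble, library 1 and library 2 (log2 fold change -1.17, SE 0.52), the lowest counts of the group. TCP1, which overlaps ACAT2 on the opposite strand, had 5907, 5997 and 6396 counts. HMGCS1, which adds the next acetyl unit, had 5228, 4693 and 3146 counts, or 64.5, 59.5 and 41.7 TPM (log2 fold change -0.82, SE 0.37). Both genes were lower in library 1 and lower again in library 2 under either scaling.

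The kinases of mevalonate differed from each other in sign. MVK, the first of them, had 506, 549 and 433 counts (log2 fold change -0.45, SE 0.41). MMAB, a cobalamin gene that overlaps the start region of MVK on the other strand, had 552, 473 and 335 (log2 fold change -0.86, SE 0.42). PMVK, the next kinase, had 177, 320 and 408 counts, or 5.12, 9.61 and 11.7 TPM (log2 fold change 0.64, SE 0.48, 95% interval -0.45 to 1.73; edgeR adjusted p = 0.690). Both shKLF5 values of PMVK lay above scramble under both scalings, and the interval includes 0.

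MVD, which decarboxylates the product to isopentenyl diphosphate, had 539, 597 and 241 counts (log2 fold change -0.78, SE 0.54), so library 2 stood well apart from the other libraries. IDI1, the isomerase, had 1240, 1435 and 752 counts (log2 fold change -0.59, SE 0.45) with the same arrangement. FDPS, which makes farnesyl diphosphate, had 2267, 1910 and 1700 counts (log2 fold change -0.73, SE 0.35), with its shKLF5 libraries close together. RUSC1-AS1, an antisense gene that overlaps FDPS, had 398, 354 and 371 counts.

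In the squalene and sterol steps 10 of 11 genes were lower in both libraries, with a median of -0.31 in library 1 and -1.11 in library 2. With library size alone only EBP and LSS were lower in both, and the median in library 1 was 0.12. LSS, which cyclises epoxidised squalene to lanosterol, had 2937, 2294 and 1810 counts (log2 fold change -0.92, SE 0.35), the clearest of the 11 against its error. EBP, a sterol isomerase, had 3312, 3249 and 2580 counts (log2 fold change -0.59, SE 0.35).

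For 8 of the other 9 genes, unscaled counts were lowest in library 2 and highest in library 1, and TM7SF2 was the exception. FDFT1, which couples farnesyl units to squalene, had 1911, 2075 and 954 counts (log2 fold change -0.75, SE 0.47). SQLE, the squalene epoxidase, had 3659, 3978 and 2047 counts (log2 fold change -0.69, SE 0.43). MSMO1 and NSDHL, which act in removal of the methyl groups at carbon 4 of the sterol, had 2981, 3343 and 1452 counts and 978, 1064 and 473 counts. Their log2 fold changes were -0.73 (SE 0.48) and -0.76 (SE 0.49). SC5D, a sterol desaturase, had 2409, 2851 and 1625 counts, and DHCR7, which reduces the last double bond of the precursor of cholesterol, had 3305, 3325 and 2003.

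CYP51A1, which removes a methyl group from lanosterol, differed most between the shKLF5 libraries. Its counts were 1181 (scramble), 1264 (library 1) and 277 (library 2), equal to 15.3, 16.1 and 3.58 TPM. Scaled counts lay 1.25-fold (library 1) and 5.57-fold (library 2) below scramble, and the fitted log2 fold change of -1.03 had an SE of 0.70. HSD17B7, which also acts at carbon 4, had 170, 179 and 140 counts (log2 fold change -0.50, SE 0.49), and its pseudogene HSD17B7P2, which may share its reads, had 52, 89 and 56. TM7SF2, a sterol reductase, had 252, 316 and 340 counts (log2 fold change -0.02, SE 0.45, 95% interval -1.04 to 0.997), and its sign depended on the scaling. VPS51, which overlaps it, had 834, 936 and 972.

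The fatty acid steps had the lowest median of the 4 groups, -1.39, with -0.93 in library 1 and -1.90 in library 2, and all 6 measured genes were lower in both libraries. With library size alone 5 of 6 were lower in both, at a median of -0.97, and ACLY was split. ACLY, which makes cytosolic acetyl-CoA from citrate, had 3257, 3282 and 1534 counts (log2 fold change -0.85, SE 0.46). FASN, the fatty acid synthase, had 7315, 6730 and 4076 counts (log2 fold change -0.85, SE 0.39).

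The desaturases and the elongase differed more than the synthase by their fitted values, which was not tested. FADS1, a desaturase of polyunsaturated fatty acids, had 7606, 4308 and 3702 counts, or 63.0, 44.5 and 36.3 TPM. The shKLF5 libraries were close, at 113 ± 9.93 CPM (SD, n = 2) against 286 CPM in scramble. The fitted difference was -1.33 on the log2 scale (SE 0.34, 95% interval -2.11 to -0.55; edgeR adjusted p = 0.417). FADS2, its partner in the pathway, had 9696, 6229 and 2512 counts, or 140, 95.5 and 37.4 TPM (log2 fold change -1.56, SE 0.49; edgeR adjusted p = 0.446). Here library 2 lay far below library 1, at 2.41-fold less. The pair overlap on opposite strands. FEN1, which overlaps FADS2 on the same strand, had 1832, 1629 and 2049 counts.

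SCD, which places the double bond in oleate, was the most abundant of the 28. Its counts were 57542 (scramble), 44412 (library 1) and 11560 (library 2), equal to 357, 286 and 71.5 TPM. Library 1 lay 1.74-fold and library 2 lay 6.50-fold below scramble, so the mean of the shKLF5 libraries, 787 ± 643 CPM (SD, n = 2), stood for neither. The log2 fold change was -1.46 (SE 0.65; edgeR adjusted p = 0.537).

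ELOVL6, which lengthens palmitate, had the largest fitted difference of the 28. It had 1306, 761 and 219 counts (log2 fold change -1.83, SE 0.61; edgeR adjusted p = 0.446), 2.30-fold and 7.79-fold below scramble. Its TPM were 19.0, 11.4 and 9.99, a smaller spread than the counts. In library 2, 7.96 of the 9.99 TPM came from ELOVL6-207, a processed transcript of 204 bases with 16.0 counts there and an effective length of 64.6. The coding ELOVL6-201 had 935, 543 and 109 counts, or 10.3, 6.22 and 1.20 TPM, in the same order as the gene's counts.

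Library 2 lay below library 1 for 25 of the 28 genes, where 49.5% of all genes did. The exceptions were PMVK, TM7SF2 and INSIG1. The median difference was -0.69 on the log2 scale for the 28 genes and 0.01 for all genes tested, and the count was again 25 with library size alone (49.7% of all genes). A difference of more than 1 separated the libraries for 9 genes, against 8.48% of all genes in that direction: CYP51A1, SCD, ELOVL6, FADS2, MVD, MSMO1, NSDHL, FDFT1 and ACLY. CYP51A1 was 4.44-fold higher in library 1 than in library 2 (95% interval 3.89 to 5.07) and SCD 3.74-fold (3.66 to 3.81), where the intervals cover counting error only. With 1 library on each side, this difference has no replicate check, and the labels do not say what set the libraries apart. KLF5 itself was at 37.3 CPM in library 1 and 44.0 CPM in library 2.

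**Figure D3:**
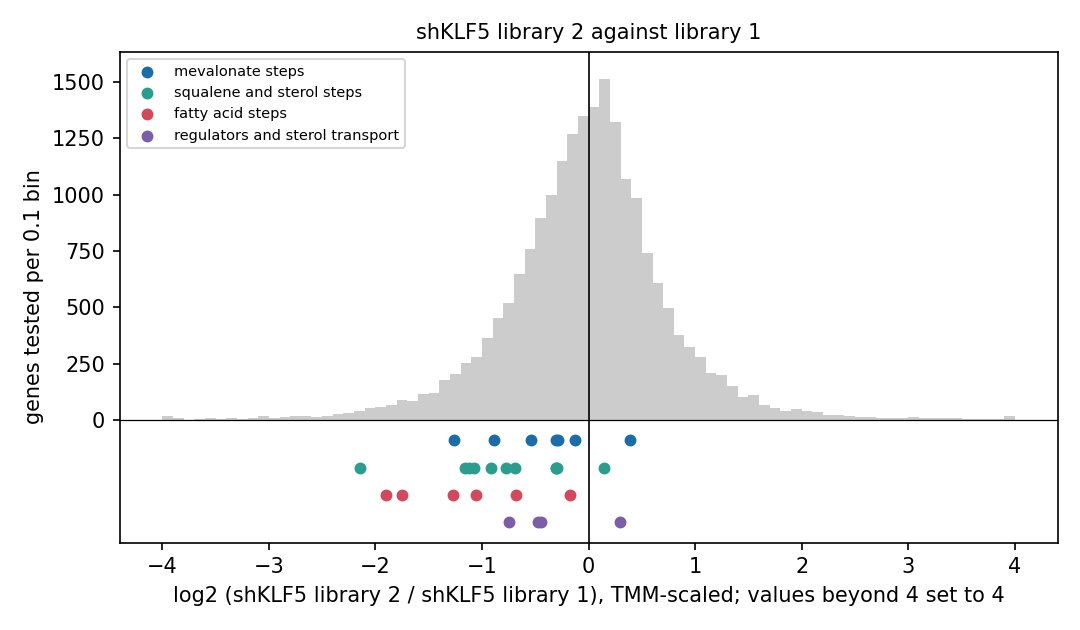
Distribution of the log2 ratio of shKLF5 library 2 to shKLF5 library 1 over all genes tested (histogram, genes per bin of 0.1), with the 28 lipid synthesis genes marked. The 28 have a median of -0.69 and all genes tested a median of 0.01.

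The tables listed 287 transcripts of the 28 genes, 172 with at least 10 counts in a library. The most counted transcript was the same in all 3 libraries for 25 genes. For ACLY, ACLY-207 held 1237, 362 and 539 counts in scramble, library 1 and library 2, and ACLY-201 held 930, 1940 and 653. For NSDHL the most counted transcript was NSDHL-203 in scramble and library 1 and NSDHL-201 in library 2, and for HSD17B7 it was HSD17B7-208 in library 1 and HSD17B7-201 elsewhere. Kallisto divides reads shared by transcripts among them, so these shares are estimates.

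Transcripts without a coding sequence, such as retained-intron forms, took a larger median share in library 2. Their median share over the 28 genes was 1.93% in scramble, 2.44% in library 1 and 6.77% in library 2, against 2.65%, 3.28% and 4.04% over 15024 coding genes tested. The share exceeded that of scramble in 12 of the 28 genes in library 1 and in 19 in library 2, where 39.9% and 47.2% of the coding genes did. In library 2 it was lower in 4, and 23 genes had any such transcript. A gap between medians is not the change within a gene. From scramble to library 2 the share changed by 0.77 points in FASN, 10.5 in ACAT2 (on 10 counts) and -7.18 in MVD. For MVK the share was 20.7%, 19.0% and 25.8% in scramble, library 1 and library 2. Among SREBF1 transcripts, SREBF1-201 held most of the counts in every library, with 5937, 5108 and 2818.

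Genes next to these steps were read from 8 lists of 103 genes, of which 100 were tested. Under TMM scaling 67 of the 100 lay below scramble in both libraries (36.4% of all genes) and 17 lay above (37.9%). With library size alone 23 lay below in both and 40 above (12.6% and 65.0%). None was called by edgeR, by its legacy fit or by DESeq2. In the edgeR test 8 of the 100 had an unadjusted p under 0.05 in either direction, where 9.43% of all genes did. The genes named below from each list are those of smallest p, and the lists as a whole held no excess of small p.

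The other SREBP-responsive genes were lower in both libraries in 9 of 9 cases under TMM scaling, and in 3 of 9 with library size alone. TMEM97, an endoplasmic reticulum protein that binds sterols, had 1670, 1337 and 220 counts in scramble, library 1 and library 2 (log2 fold change -1.52, SE 0.78), with library 2 apart as for CYP51A1. ACSS2, which makes acetyl-CoA from acetate, had 345, 291 and 261 counts (log2 fold change -0.73, SE 0.43), and MMAB is given with MVK. Of the other genes that process SREBP or sense sterols, 4 of 10 were lower in both, 1 was higher and 5 were split, with a median of -0.27 that became 0.15 with library size alone. ERLIN1, which takes part in degradation at the endoplasmic reticulum, had 2756, 2284 and 1576 counts (log2 fold change -0.92, SE 0.37). ERLIN2, its partner, had 3546, 3381 and 2204 (log2 fold change -0.75, SE 0.38), and MBTPS2, a protease that releases SREBP, had 2541, 2586 and 2370 (log2 fold change -0.44, SE 0.35).

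The other fatty acid synthesis and elongation genes were lower in both in 14 of 17 cases, at a median of -0.58, whereas with library size alone 5 were lower and 5 higher in both, at a median of -0.16. ME1, a source of NADPH, had 2526, 1662 and 1458 counts (log2 fold change -1.10, SE 0.35). HACD2 and HACD3, dehydratases of elongation, had 3838, 2676 and 2477 counts and 9913, 8784 and 4008 counts. ME1 and HACD2 were similar in the shKLF5 libraries, and HACD3 was lower in library 2. Fatty acid oxidation genes, which break the products down, were lower in both in 13 of 16 cases at a median of -0.41, which became 0.01 with library size alone. CPT1A, which brings fatty acids into mitochondria, had 4622, 4174 and 2601 counts (log2 fold change -0.86, SE 0.39). The matrix enzymes ACADM, with 483, 430 and 266 counts, and HADH, with 1118, 933 and 821, stood at -0.88 (SE 0.45) and -0.76 (SE 0.37).

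Among fatty acid activation and glycerolipid genes 8 of 14 were lower in both and 4 higher, with a median of -0.39 that became 0.03 with library size alone. ACSL1, an acyl-CoA synthetase, had 3314, 1414 and 1468 counts (log2 fold change -1.61, SE 0.34; edgeR adjusted p = 0.310), with close shKLF5 libraries and the smallest adjusted p of the 100. LPIN3 had 1620, 1395 and 1073 counts, and PLIN2, which coats lipid droplets, had only 7, 43 and 59. Isoprenoid branch genes were lower in both in 10 of 14 cases, with a median of -0.35 that became 0.08 with library size alone. ZMPSTE24, a protease of prenylated proteins, had 5522, 5122 and 2192 counts (log2 fold change -1.01, SE 0.48), RABGGTB had 2069, 1606 and 1872, and COQ2 had 431, 424 and 245.

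Genes of sterol export and storage were more mixed. Of the LXR and sterol export genes 3 of 8 were lower in both and 4 were higher, at a median of 0.20, whereas with library size alone 0 were lower and 5 higher, at a median of 0.63. ABCG1, a sterol exporter, had 3736, 3911 and 1385 counts (log2 fold change -0.91, SE 0.54), LPCAT3 had 1367, 1415 and 904, and NR1H2, which encodes an LXR, had 835, 1739 and 1603 (log2 fold change 0.60, SE 0.38). Of the sterol transport and ester genes 6 of 12 were lower and 5 higher, with a median of -0.14 that became 0.28 with library size alone. CAV1, the coat protein of caveolae, had 5002, 1675 and 2714 counts (log2 fold change -1.59, SE 0.40; edgeR adjusted p = 0.407). NCEH1, a cholesteryl ester hydrolase, had 57, 230 and 229 counts (log2 fold change 1.60, SE 0.54), and GRAMD1C, a sterol transfer protein, had 26, 129 and 84.

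**Figure D4:**
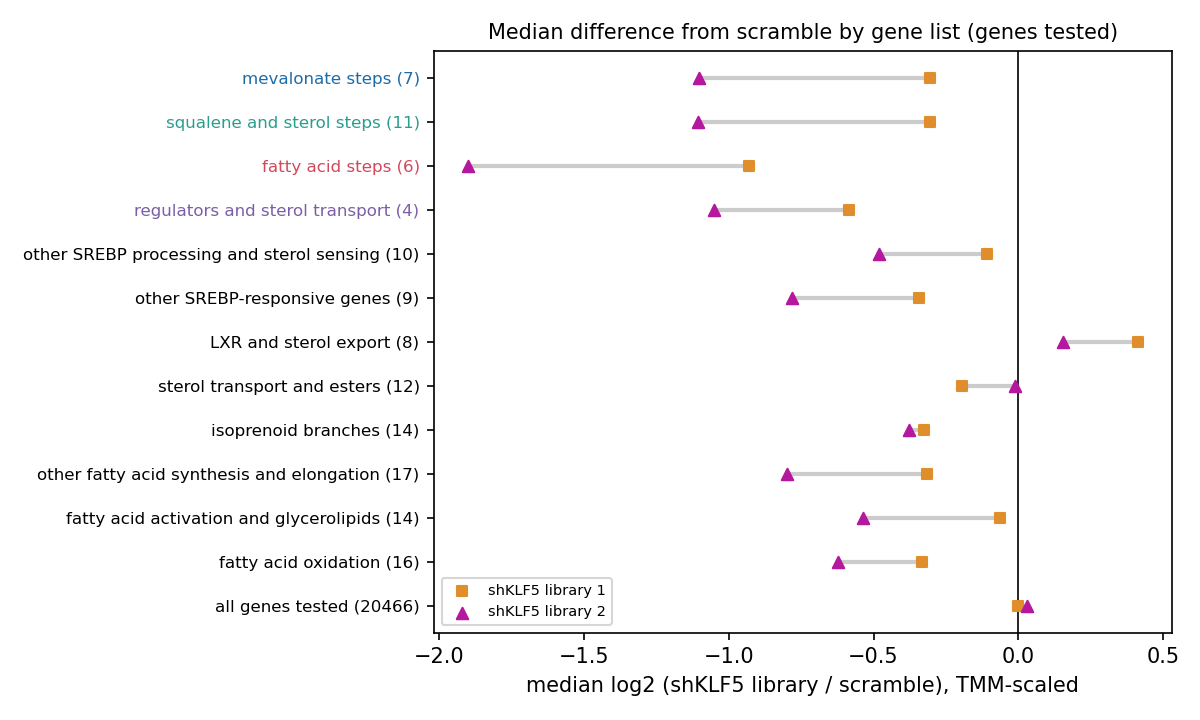
Median log2 ratio of each shKLF5 library to scramble (TMM-scaled) for the 4 step groups, 8 further lists and all genes tested, with the number of genes in brackets. The fatty acid steps stand lowest in both libraries, at -0.93 and -1.90, and the LXR and sterol export list is above 0 in both.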

How the data were processed

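RNA-seq values came from 3 deposited tables, 1 per library, in kallisto's format. Per the file headers, estimated counts are raw fractional counts per transcript. Deposited TPM values are scaled by the authors' software for effective length and depth. The submitters' processing notes name kallisto, DESeq2 and build hg19 and give no version. Index and strand use: not given in the sources used here. Length columns were deposited in bases and served to check the annotation.

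Of 196354 transcripts, 92.6% were matched by Ensembl identifier to GENCODE 29, and 93.2% of those had the same length there. The unmatched share of counts was 3.05% to 3.42% per library. No transcript of ACACA, or of the markers PECAM1 and MUC5AC, was matched. Counts were summed per gene, rounded and tested with edgeR (version 4.0.16, under R 4.3.3; filterByExpr, TMM, quasi-likelihood F test with 1 residual degree of freedom, Benjamini-Hochberg over 20466 genes, threshold 0.05). The prior degrees of freedom had a median of 7.34. Log2 ratios of single libraries used a prior count of 2. Intervals of the ratio between the shKLF5 libraries treat estimated counts as Poisson and cover counting error only. Alternatives were DESeq2 1.42.0, the legacy edgeR fit, library size alone or of nuclear genes, median-ratio factors, length-scaled TPM, limma 3.58.1 on log2(TPM + 1), other filters, an abundance trend removed and each shKLF5 library left out.

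The genes and lists were chosen with earlier results of these data known. All 29 genes are named, with KLF5, overlapping neighbours and up to 3 genes of smallest p in each further list. Promoter sequences and starts are from RefSeq on GRCh38.p14. For 30 of the 34 windows the bases after the start lie in a GENCODE transcript of the gene.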

Additional observations from a re-analysis of the deposited data

How the results depend on the processing

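No paired analysis was possible because a single scramble library, whose label carries no replicate number, stood against 2 shKLF5 libraries. Of 335 values of single genes under an alternative, 328 kept their direction. Values with the abundance trend removed or with a shKLF5 library left out carried no test. None of the 28 genes was called under any alternative that was tested, so the tally of 328 speaks of direction only. MVK turned to 0.055 with limma on log2(TPM + 1). TM7SF2 turned to 0.40 with library size alone, 0.29 with the library size of nuclear genes (an alternative chosen after seeing the data), 0.15 with a mean CPM of at least 5, 0.39 with limma on log2(TPM + 1) and 0.073 with the abundance trend removed. Leaving out each shKLF5 library in turn gave -0.098 to 0.047 for TM7SF2. Under TMM scaling the same omissions gave medians of -0.41 without library 2 and -1.17 without library 1 for the 28 genes. With library size alone the median in library 1 was 0.01, so the direction without library 2 depended on the scaling. Genes lower in both libraries were 13 with library size alone and 12 in TPM, where 12.6% and 11.3% of all genes were. Calls over all genes were 21 with the legacy edgeR fit and 116 with DESeq2. The cause of these differences was not tested. A single scramble library limits every comparison. The SE was largest for CYP51A1 (0.70), SCD (0.65) and ELOVL6 (0.61).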
